A study of Mus musculus with 12 samples.

Results

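Glypicans are heparan sulfate proteoglycans held on the outer cell surface by a lipid anchor, and the mouse has 6 genes for them, Gpc1 to Gpc6. All 6 were found, by symbol, among the 25428 probe sets measured in embryonic striatum, each as a single probe set named by its gene identifier (14733_at for Gpc1, 71951_at for Gpc2, 14734_at for Gpc3, 14735_at for Gpc4, 103978_at for Gpc5 and 23888_at for Gpc6). The family was chosen by its members' names and selected on a measured value, the cKO against WT difference of Gpc6, which was already known to be among the largest falls in these data. The differences of the 6 genes between the genotypes are therefore a description, without a test of their own.

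The heparan sulfate chains of a glypican bind secreted proteins such as Wnt, Hedgehog, FGF and BMP ligands and Slit guidance proteins, and so influence how far these spread and how well they reach their receptors. Glypicans fall into a subfamily with Gpc1, Gpc2, Gpc4 and Gpc6 and another with Gpc3 and Gpc5. In the brain, Gpc4 and Gpc6 are known as proteins released by astrocytes that promote the formation of active excitatory synapses, Gpc2 is found on growing axons of immature neurons, and Gpc1 binds Slit proteins.

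RNA came from dissected striata, left and right together, of mouse embryos of the C57BL/6J background at embryonic day 18.5, and was measured on 12 arrays. The first group was wild type (WT, n = 6). The other group (n = 6, called cKO here) is labelled Nestin-Cre (Foxp1-/-): it carried Cre recombinase driven by Nestin, which is active in neural progenitors and so not restricted to the striatum or to neurons, and is labelled as lacking Foxp1, which encodes a forkhead factor of striatal projection neurons. The labels give neither the sex of the embryos nor a WT group with Nestin-Cre, so Cre and Foxp1 loss cannot be told apart. The comparison asks which transcripts of the striatum depend on genotype shortly before birth. Values are RMA expression on the log2 scale, and differences are cKO minus WT.

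Foxp1 averaged 11.14 in the WT arrays and 10.23 in the cKO arrays, 1.88-fold lower with no overlap (-0.91 ± 0.07, SE; limma adjusted p = 0.00017), in the direction of the labels. It was still far above the array median in cKO, and where its probes lie relative to the deleted part is not given in the sources used here, so the remaining signal does not measure how complete the loss was. Of 13 measured markers of striatal projection neurons, 0 lay below the array median of 5.71. The array of cKO replicate 1 stood apart in the choroid plexus transcript Ttr, at 9.96 against 5.39 to 5.57 on the other 11 arrays. The other 5 genes of that list read 5.58 to 5.71 on this array, dim values at which a rise would be hard to see. Kl and Otx2 were highest on it, each at 5.58 against 5.57 or less on the other arrays. The glypican values without this array are given below. Replicates were labelled as biological, with nothing further on litters, and each p-value reflects the spread between 6 such samples per group.

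Gpc6 was the glypican that differed most between the groups. Its WT values were 7.92, 8.03, 8.25, 7.99, 7.92 and 8.26 in order of replicate number. Its cKO values, in the same order, were 7.24, 7.42, 7.37, 7.25, 7.34 and 7.23. The groups did not overlap, and the lowest WT value exceeded the highest cKO value by 0.50 log2 units. The WT mean was 8.06 ± 0.16 (SD, n = 6). The cKO mean was 7.31 ± 0.08 (SD, n = 6), which gives a difference of -0.75 ± 0.07 (SE) with a 95% interval from -0.90 to -0.61, or 1.69-fold lower. Of all probe sets, 12 had a larger fall. Within WT, replicates 3 and 6 stood above the other 4 arrays, and without both the difference was -0.66.

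The other glypicans that lay above the array median, Gpc1 and Gpc2, overlapped between the groups. Gpc1 read 8.46, 8.36, 8.31, 8.31, 8.45 and 8.75 in WT replicates 1 to 6 and 8.50, 8.29, 8.35, 8.35, 8.30 and 8.16 in cKO replicates 1 to 6. Its highest WT value, in replicate 6, and its lowest cKO value, also in replicate 6, were the extremes, and the remaining arrays were intermixed. The difference was -0.11 ± 0.08 (SE, 95% interval -0.28 to 0.05), and without WT replicate 6 it was -0.05.

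Gpc2 read 10.16, 10.19, 10.18, 10.06, 10.21 and 10.28 in WT and 10.25, 10, 10.33, 9.91, 10.08 and 10.24 in cKO. The cKO arrays both began lower and ended higher than the WT arrays, with an SD of 0.16 against 0.07. The difference was -0.04 ± 0.07 (SE), with a 95% interval of -0.19 to 0.10. The sign was not stable: the value was 0.000488 without cKO replicate 4 and 0.02 with the level of cortical neuron markers as a covariate.

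Gpc3, Gpc4 and Gpc5 had means below the array median, where RMA compresses differences and where the arrays carry little information. Gpc3, a glypican that restrains Hedgehog signalling in the embryo, spanned 5.49 to 5.65 on WT arrays and 5.54 to 5.67 on cKO arrays, a difference of 0.04 ± 0.03 (SE). Gpc4 spanned 5.54 to 5.70 on WT arrays and 5.60 to 5.75 on cKO arrays, a difference of 0.05 ± 0.03 (SE). The groups overlapped for both genes. They are neighbours on the X chromosome, and with the level of Y-linked transcripts as a covariate their differences were 0.04 and 0.05. Other settings moved these small values more: with the cortical covariate they were 0.07 for Gpc3 and 0.02 for Gpc4, Gpc3 was 0.02 without WT replicate 6, and Gpc4 was 0.03 without cKO replicate 5.

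Gpc5 read 5.59, 5.52, 5.59, 5.57, 5.61 and 5.53 in WT and 5.67, 5.67, 5.59, 5.56, 5.70 and 5.64 in cKO. In cKO, replicates 1, 2, 5 and 6 lay above the highest WT array, and replicates 3 and 4 lay within the WT range. The difference was 0.07 ± 0.03 (SE, 95% interval 0.01 to 0.12), opposite in sign to that of Gpc6.

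**Figure D1:**
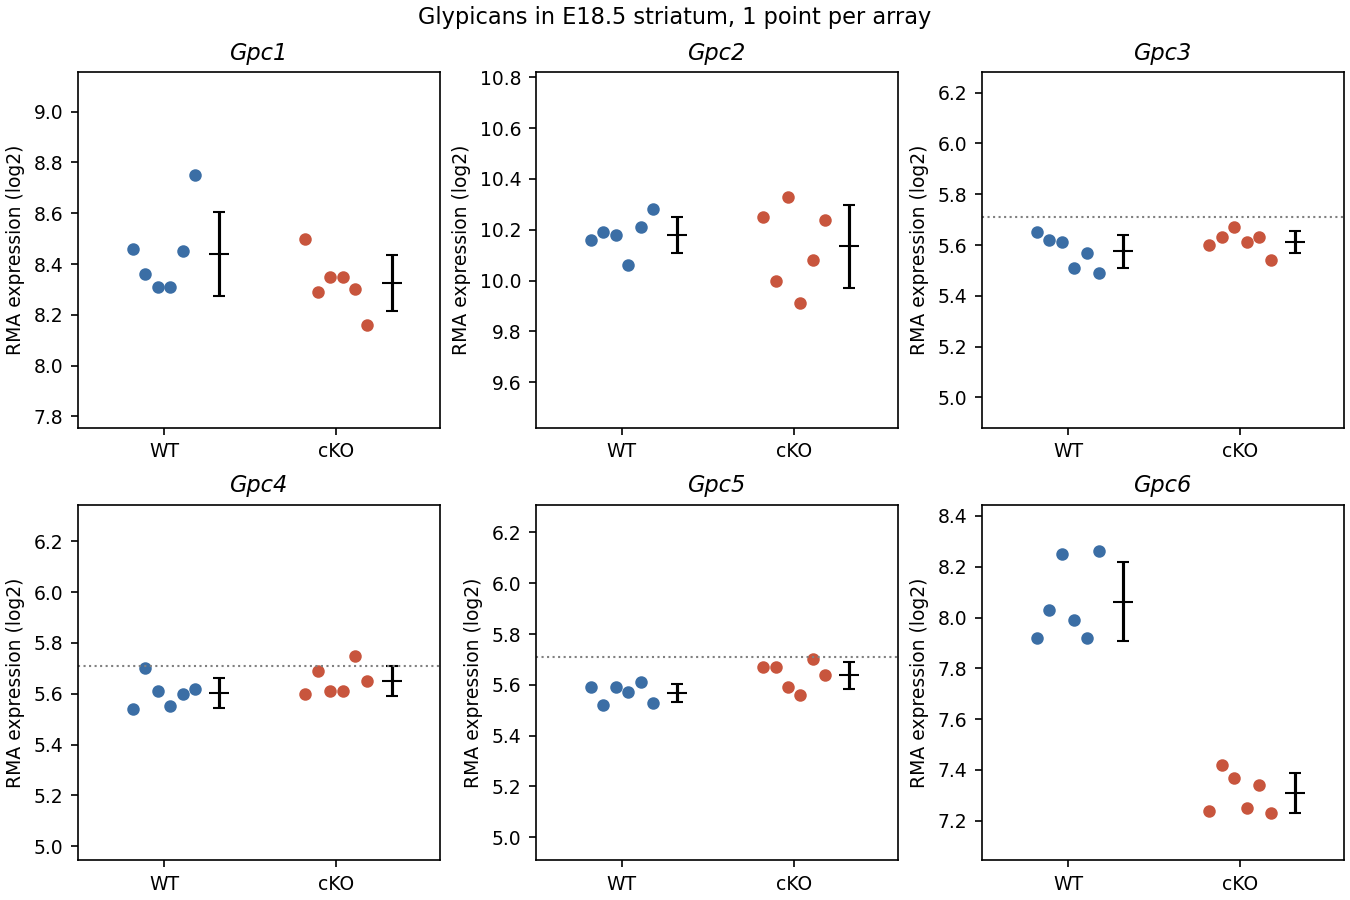
RMA expression (log2) of each glypican, with 1 point per array, WT in blue and cKO in red, in replicate order. Bars give mean ± SD of 6 arrays, all panels span the same number of log2 units, and the dotted line is the array median of 5.71. The groups separate for Gpc6 and overlap for the other 5 genes, and the means of Gpc3, Gpc4 and Gpc5 lie below the median line.

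In the limma fit over all probe sets (Benjamini-Hochberg adjusted p below 0.05), 1 of the 6 glypicans was called, Gpc6. Of all probe sets 0.728% were called, and 0.429% were called lower in cKO. The 2 groups did not overlap for 1 of the 6 glypicans, again Gpc6, and for 1.38% of all probe sets, or 0.822% counting those lower in cKO. Because this contrast led to the choice of the family, nothing is read from the count. The median difference over the 6 genes was -0.0019, against -0.00077 over all probe sets. By sign, 3 of the 6 were positive (Gpc3, Gpc4 and Gpc5) and 3 negative (Gpc1, Gpc2 and Gpc6). Over 24 alternative analyses the difference of Gpc6 lay between -0.78 and -0.66. As this is the value that led to the choice, the range describes it and is no support for it.

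**Figure D2:**
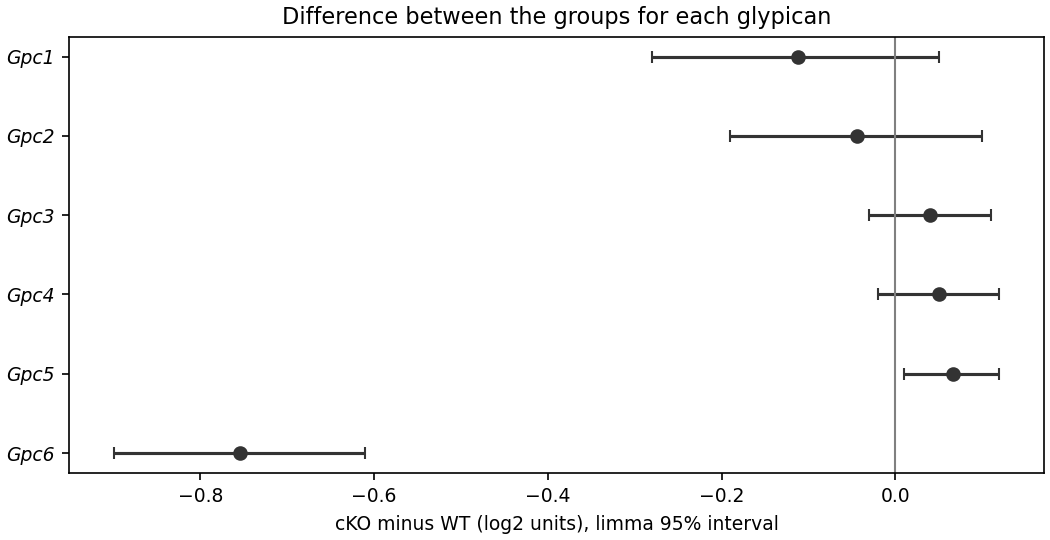
Difference between the groups (cKO minus WT, log2 units) for each glypican, with limma's 95% interval. The interval of Gpc6 runs from -0.90 to -0.61, those of Gpc1 to Gpc4 include 0, and that of Gpc5 runs from 0.01 to 0.12.

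Gpc6 and Gpc5 are neighbours in the genome, with no other measured protein-coding gene between them in the RefSeq gene order (GRCm38.p6). The nearest measured protein-coding gene beyond Gpc6 is Dct, a melanin synthesis enzyme, whose value was -0.02 ± 0.02 (SE, limma adjusted p = 0.642). The nearest beyond Gpc5 is Slitrk5, a synaptic adhesion protein, at 0.00 ± 0.05 (SE, limma adjusted p = 0.987). Among the genes next to the other glypicans, Stag3 beside Gpc2 had -0.02 (adjusted p = 0.897) and Zfp157 0.05 (adjusted p = 0.676), and Otos and Ankmy1 beside Gpc1 had -0.02 (adjusted p = 0.781) and 0.00 (adjusted p = 0.984). On the X chromosome, Ccdc160 had -0.02 (adjusted p = 0.765) and 1700080O16Rik 0.01 (adjusted p = 0.781) in the same limma fit. None of these 8 neighbours passed the threshold, which 0.728% of all probe sets passed. Dct, Otos, Ankmy1, Ccdc160 and 1700080O16Rik had means below the array median of 5.71, where a difference would be hard to see. The noncoding transcript listed next after Gpc5, 4930505G20Rik, was also measured, with -0.01 ± 0.01 (SE, limma adjusted p = 0.841), and lay below the array median.

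Cell types that could carry glypican transcripts were read from their markers on the same arrays. In a bulk sample, fewer cells of a type and less RNA per cell cannot be told apart. The mean level of the 13 projection neuron markers spanned 9.36 to 9.59 on WT arrays and 9.26 to 9.43 on cKO arrays. Their median difference was -0.12, with 1 called lower (Pde10a, -0.59) and 0 higher, against 0.728% of all probe sets called. The markers moved in both directions. Tac1 had -0.55 (limma adjusted p = 0.0653) and Ppp1r1b -0.48 (adjusted p = 0.0718). Penk had 0.38 (adjusted p = 0.0501) and Gad1 0.16 (adjusted p = 0.128). With the mean of the 13 markers as a covariate, chosen after the data were seen, Gpc6 differed by -0.67. The part of projection neurons in the Gpc6 difference was not tested. The 11 astrocyte markers had a mean of 7.37 to 7.56 in WT and 7.40 to 7.51 in cKO, with 0 called. For the 8 radial glia markers, with 0 called, WT arrays averaged 8.36 to 8.57. The cKO arrays averaged 8.58, 8.61, 8.58, 8.51, 8.65 and 8.51 in replicate order, most of them above every WT array. Sox2 had 0.37 (limma adjusted p = 0.111) and Nes 0.23 (adjusted p = 0.189). Pax6 had 0.19 (adjusted p = 0.350) and Gsx2 0.09 (adjusted p = 0.446). Each of these genes had an unadjusted p under 0.05 (10.7% of all probe sets). Hes5 and Fabp7 had 0.02 each, Vim 0.00 and Hes1 -0.02. Of 6 markers of oligodendrocyte precursors, 0 passed (WT 6.59 to 6.89, cKO 6.67 to 6.76). The part of glial cells in the Gpc6 difference was not tested.

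The 8 cortical neuron markers would mark a piece of neighbouring cortex. Their mean spanned 6.00 to 6.34 on WT arrays and 5.99 to 6.59 on cKO arrays, with 0 called (0.728% of all probe sets). In cKO, replicates 2, 4, 5 and 6 lay above every WT array, and replicates 1 and 3 did not. Neurod6 had 0.51 ± 0.21 (SE, limma adjusted p = 0.408), Neurod2 0.41 ± 0.18 (adjusted p = 0.410) and Tbr1 0.34 ± 0.20 (adjusted p = 0.587). Neurod1 had 0.15 (adjusted p = 0.703), Slc17a7 0.07, Fezf2 0.03, and Emx1 and Emx2 0.02 each. Of the 8 markers, 2 lay below the array median, Emx1 and Slc17a7. With the mean of Neurod6, Neurod2 and Tbr1 as a covariate Gpc6 differed by -0.73. For meninges and fibroblasts, 7 of 10 markers lay below the array median, and their mean was 5.69 to 5.75 in WT and 5.67 to 5.75 in cKO. Without cKO replicate 1, the array with high Ttr, Gpc6 differed by -0.74, Gpc5 by 0.06 and Gpc4 by 0.06. Gpc1 then differed by -0.15, Gpc2 by -0.07 and Gpc3 by 0.04.

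The related genes were compared with the whole array, on which limma called 0.728% of probe sets (0.299% higher and 0.429% lower) and 10.7% had an unadjusted p under 0.05. A list of 16 measured genes covered the start and growth of the heparan sulfate chain and the supply of its building blocks (Ugdh, Slc35b2, Papss1 and Papss2). Of these 16, 1 rose and 0 fell, against 0.728% called on the array. The list median was 0.013, and an unadjusted p under 0.05 was reached by 3, all higher. Pxylp1, the phosphatase that removes phosphate from the xylose of the linker and so allows the chain to grow, read 6.40, 6.38, 6.31, 6.35, 6.34 and 6.41 in WT replicates 1 to 6. In cKO replicates 1 to 6 it read 6.64, 6.55, 6.53, 6.50, 6.60 and 6.55. All cKO arrays exceeded all WT arrays, and Pxylp1 rose by 0.19 ± 0.03 (SE, limma adjusted p = 0.00662), or 1.14-fold. Fam20b, the kinase that adds the same phosphate, and the chain polymerase genes Ext1 and Ext2, chosen here for their roles, differed by 0.12 (adjusted p = 0.482), 0.11 (adjusted p = 0.454) and 0.02 (adjusted p = 0.940).

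Among the enzymes that modify the chain inside the cell, 1 of 15 measured rose and 0 fell (0.728% of all probe sets were called), with a median of -0.013. An unadjusted p under 0.05 was reached by 3 higher and 3 lower. Ndst3, an enzyme that exchanges acetyl groups of the chain for sulfate, read 8.54, 8.59, 8.18, 8.48, 8.43 and 8.51 in WT and 8.85, 8.88, 8.79, 8.87, 8.84 and 8.85 in cKO. The cKO arrays were tightly grouped above every WT array, of which replicate 3 was the lowest. Ndst3 rose by 0.39 ± 0.06 (SE, limma adjusted p = 0.00859), or 1.31-fold. Sulfotransferases further along the pathway differed in both directions, and none passed the threshold. Hs3st1 had -0.33 ± 0.08 (limma adjusted p = 0.120) and Hs6st2 -0.20 ± 0.05 (adjusted p = 0.0840), both named after their values were seen. Hs3st5 had -0.17 (adjusted p = 0.311) and Hs3st4 0.18 (adjusted p = 0.335), while Hs6st1 had -0.03 and Hs2st1 -0.01. Hs6st2 spanned 7.63 to 7.71 on WT arrays and 7.26 to 7.61 on cKO arrays, without overlap. Hs3st1 and Hs6st2 passed when dim probe sets were left out (limma adjusted p = 0.0458 and 0.0428). Hs3st1 also passed with a trended, robust prior (adjusted p = 0.0497) and Hs6st2 without cKO replicate 4 (adjusted p = 0.0261).

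Proteins that cut, trim or release glypicans gave 0 called of 13 in limma, while an unadjusted p under 0.05 was reached by 2 higher and 0 lower (10.7% of all probe sets), and the median was -0.012. These 2 were the extracellular sulfatases that remove sulfate from finished chains: Sulf1 at 0.12 ± 0.03 (adjusted p = 0.0832) and Sulf2 at 0.19 ± 0.08 (adjusted p = 0.366). Sulf1 passed with a trended, robust prior (adjusted p = 0.0445) and without WT replicate 3 (adjusted p = 0.0435). Its WT mean of 5.67 lay below the array median. Notum, the lipase that can release glypicans by cutting their anchor, chosen for its role, had -0.01 (adjusted p = 0.875) and lay below the array median.

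The genes that build and attach the glycosylphosphatidylinositol (GPI) anchor numbered 20, with 0 called in limma while an unadjusted p under 0.05 was reached by 1 higher and 2 lower (10.7% of all probe sets). Pgap1, a remodelling enzyme of the anchor, had 0.17 ± 0.05 (adjusted p = 0.200) and Pigb, a mannosyltransferase, -0.07 ± 0.03 (adjusted p = 0.386). Of 11 other heparan sulfate proteoglycans, syndecans, agrin and perlecan among them, 0 were called and 1 was lower at an unadjusted p under 0.05, again against 10.7% of all probe sets. That was Spock2, a testican, at -0.12 ± 0.05 (adjusted p = 0.425). Its WT replicate 3 read 9.79 against 9.44 to 9.57 on the other WT arrays. The next smallest p belonged to Col18a1, at 0.03 ± 0.02 (adjusted p = 0.604), which lay below the array median. Differences in the list ran from -0.12 to 0.04, against -0.75 for Gpc6.

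Of 17 known or proposed partners of glypicans in synapses and axon guidance, 1 rose and 0 fell (0.728% of all probe sets were called, 0.299% higher), with a median of 0.032. Slit3, a secreted guidance protein, read 6.55, 6.56, 6.21, 6.52, 6.41 and 6.55 in WT and 6.76, 6.73, 6.76, 6.78, 6.73 and 6.84 in cKO, without overlap. It rose by 0.30 ± 0.06 (SE, limma adjusted p = 0.0341). That call was lost on leaving out any one of WT replicates 4 and 5 and cKO replicates 1 to 6, with adjusted p from 0.0576 to 0.0856, while the difference stayed between 0.28 and 0.31. Gria1, which encodes a subunit of AMPA receptors, and the netrin receptor gene Unc5d were named after their values were seen. Gria1 had 0.27 ± 0.06 (adjusted p = 0.0589), with 10.42 to 10.82 in WT and 10.91 to 10.99 in cKO, and Unc5d had 0.43 ± 0.12 (adjusted p = 0.154). Unc5d passed without WT replicate 5, at 0.52 (limma adjusted p = 0.0396). Gria1 missed the threshold narrowly and passed in 6 alternatives: without WT replicate 1 (adjusted p = 0.0293), without WT replicate 6 (0.0348), without WT replicates 3 and 6 (0.0371), with dim probe sets left out (0.0238), with a trended, robust prior (0.0198) and with array weights (0.0439). The presynaptic receptor gene Ptprs and the postsynaptic Lrrtm4, chosen for their roles, had -0.01 (adjusted p = 0.970) and -0.03 (adjusted p = 0.844).

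Genes of the Hedgehog and FGF pathways, signals that glypicans are known to modulate, did not pass in the main fit. In limma, 0 of 16 Hedgehog pathway genes were called (0.728% of all probe sets), while an unadjusted p under 0.05 was reached by 2 higher and 1 lower (10.7% of all probe sets). Boc, a Hedgehog co-receptor, had 0.16 ± 0.05 (adjusted p = 0.194), Hhip, a Hedgehog-binding inhibitor, 0.06 ± 0.02 (adjusted p = 0.219), and the target gene Ptch1, chosen for its role, -0.03 (adjusted p = 0.904). With the replicate number as a block, Boc passed at an unchanged difference (limma adjusted p = 0.0115). Of the 16 Hedgehog pathway genes 5, Hhip among them, lay below the array median. Of 27 FGF pathway genes 0 were called in limma, and an unadjusted p under 0.05 was reached by 2 higher and 1 lower, also against 10.7% of all probe sets. Etv5, a transcription factor induced by FGF signalling, had 0.15 ± 0.04 (adjusted p = 0.108) and Fgf8 -0.05 ± 0.01 (adjusted p = 0.200). In this list 13 of 27 genes, Fgf8 among them, lay below the array median.

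Over all 8 lists, 3 of 135 genes were called, or 2.22%, all higher in cKO, against 0.728% of all probe sets called and 0.299% called higher. The median was 0.00075. Non-overlapping groups were found in 5 of the 135 (Pxylp1, Ndst3, Hs6st2, Slit3 and Gria1), or 3.70%, against 1.38% of all probe sets. These shares compare sets of unlike brightness: 29 of the 135 lay below the array median, against 12714 of all 25428 probe sets. The lists were also chosen with earlier results of these data known, so nothing is read from the shares. With the projection neuron mean as a covariate the 3 calls were lost (adjusted p = 0.130 for Pxylp1, 0.164 for Ndst3 and 0.358 for Slit3), while the differences were 0.19, 0.33 and 0.27, against 0.19, 0.39 and 0.30 without it. With the cortical covariate, Pxylp1 passed and Ndst3 (adjusted p = 0.0741) and Slit3 (adjusted p = 0.204) did not, with differences of 0.35 and 0.27.

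**Figure D3:**
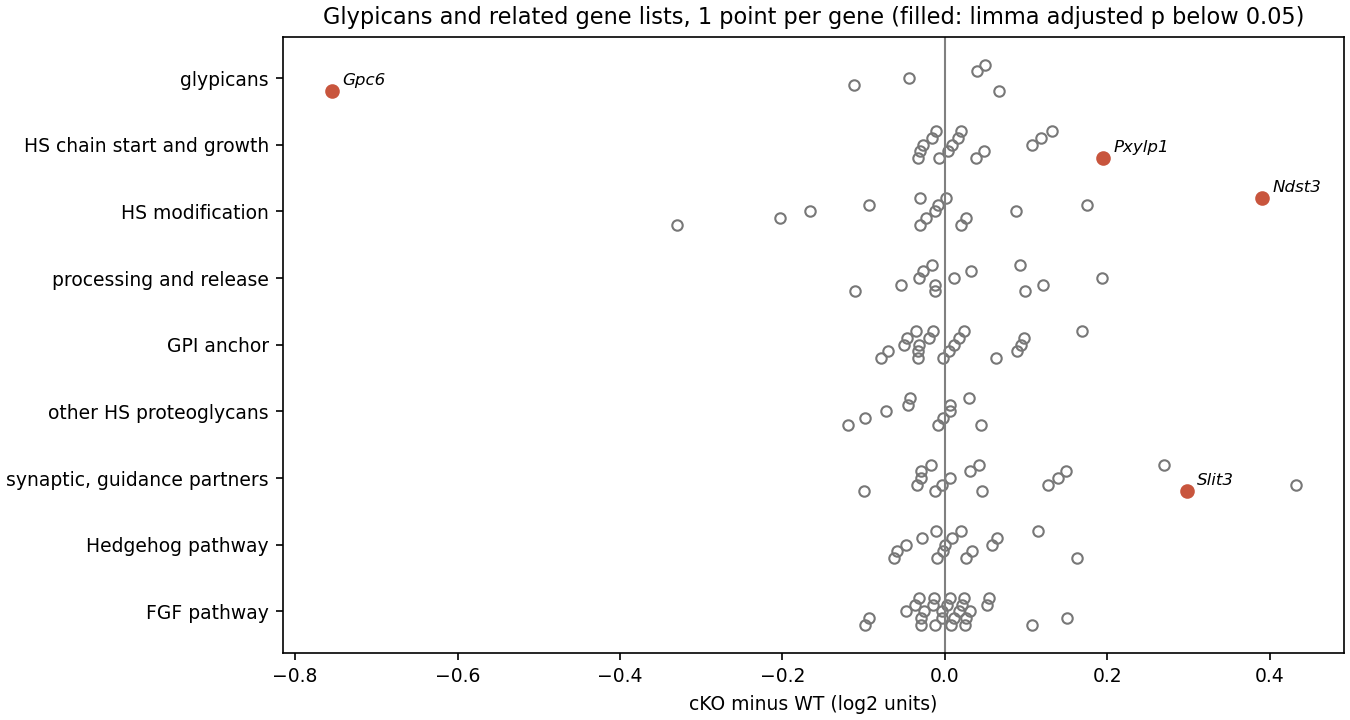
Difference between the groups (cKO minus WT, log2 units) for each measured gene of the glypican family and of 8 related lists (HS, heparan sulfate), with points shifted vertically for visibility. Filled red points passed a limma adjusted p of 0.05: Gpc6 at -0.75, Pxylp1 at 0.19, Ndst3 at 0.39 and Slit3 at 0.30.

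**Figure D4:**
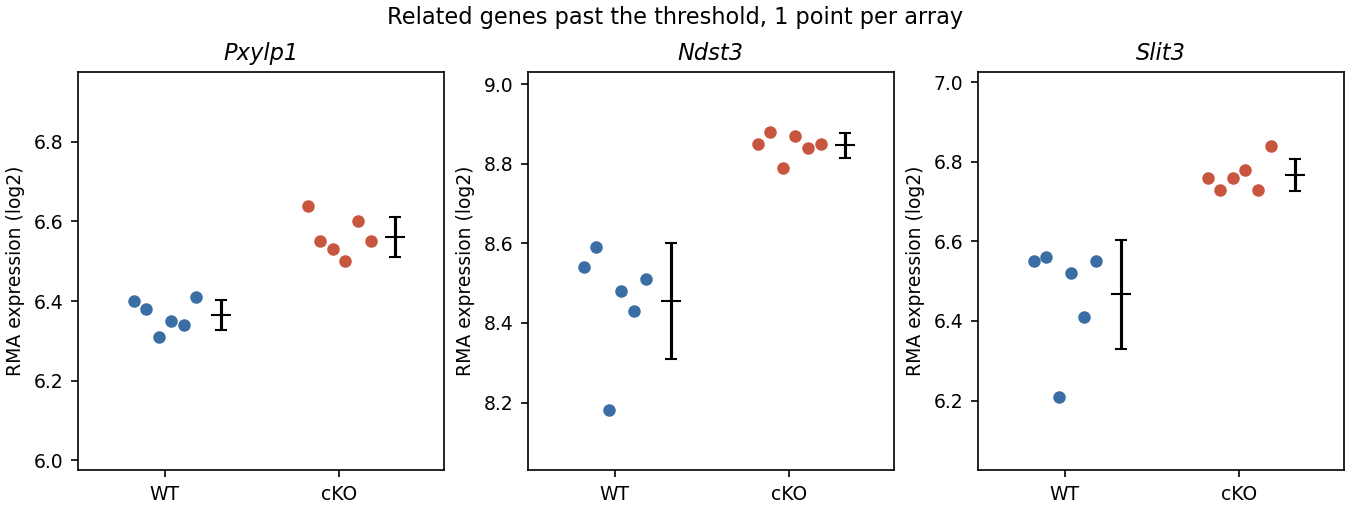
RMA expression (log2) of Pxylp1, Ndst3 and Slit3, with 1 point per array, WT in blue and cKO in red, and mean ± SD of 6 arrays. In each gene all cKO arrays lie above all WT arrays, and WT replicate 3 is the lowest of each.

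How the glypicans varied from animal to animal was examined on deviations from the group means, which do not contain the difference between the genotypes. Across the 12 arrays, Pearson correlations between pairs of glypicans ran from -0.18 to 0.35. The highest was that of Gpc4 and Gpc6 (permutation p = 0.299, adjusted p = 0.945), with rho = 0.57 (permutation p = 0.0674, adjusted p = 0.746). Of the 15 pairs, 12 include Gpc3, Gpc4 or Gpc5, whose dim signals limit what a correlation can show. The pairs among the brighter genes had r = 0.29 for Gpc1 and Gpc2, 0.26 for Gpc1 and Gpc6 and 0.12 for Gpc2 and Gpc6 (permutation p = 0.315, 0.561 and 0.632, each 0.945 adjusted), with rho = 0.20, 0.13 and -0.02 (permutation p = 0.567, 0.701 and 0.948, each 0.995 adjusted). Without the 2 arrays farthest from the median of the first gene, r was -0.11, -0.20 and -0.05. Within WT these were 0.76, 0.36 and 0.49, and within cKO 0.07, -0.04 and -0.12. Of 21 pairs tested, 15 among glypicans and 6 with Foxp1, 0 passed an adjusted p of 0.05 in a two-sided permutation test with 100000 resamples within groups, and 1 had an unadjusted p under 0.05. That pair was Gpc5 and Foxp1, with r = -0.60 (permutation p = 0.0181, adjusted p = 0.380) and rho = -0.52 (permutation p = 0.0711, adjusted p = 0.746). Without cKO replicates 3 and 4 its r was -0.63 (permutation p = 0.0571), and it was -0.81 within WT (exact p = 0.0486) and -0.54 within cKO (exact p = 0.275).

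Gpc6 and Foxp1 gave r = 0.48 (permutation p = 0.229, adjusted p = 0.945) and rho = 0.44 (permutation p = 0.225, adjusted p = 0.995). Their r was 0.70 within WT (exact p = 0.132) and -0.48 within cKO (exact p = 0.357), and 0.26 without WT replicates 3 and 6. The neighbours Gpc5 and Gpc6 had r = -0.14 (permutation p = 0.637, adjusted p = 0.945) and rho = -0.25 (permutation p = 0.398, adjusted p = 0.995).

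The genes whose deviations were most like those of Gpc6 were Tbata (r = 0.94), the activin subunit gene Inhba (0.91), the forkhead factor gene Foxo1 (0.91), the phospholipid flippase gene Atp10d (0.89) and the transcription factor gene Stat3 (0.88). These are the highest of 18428 named candidates over the 12 arrays, of which 34 exceeded 0.80, and the values are given as a description. Tbata lay below the array median of 5.71, with all its values from 5.46 to 5.53, so its match rests on small movements of a dim signal. The points share the high WT replicates 3 and 6, without which the 5 correlations were 0.87, 0.78, 0.75, 0.77 and 0.85. Foxo1 followed Gpc6 within WT (r = 0.98) and less closely within cKO (r = 0.49). Foxo1 read 6.90, 7.21, 7.92, 7.30, 7.01 and 7.92 in WT and 6.40, 6.37, 6.34, 6.12, 6.30 and 6.23 in cKO, and fell by 1.08 ± 0.17 (SE, limma adjusted p = 0.0141). Its 2 highest WT arrays were those of Gpc6. Inhba spanned 5.71 to 5.95 on WT arrays and 5.59 to 5.69 on cKO arrays, without overlap, with -0.18 ± 0.04 (adjusted p = 0.0779). All its cKO values lay below the array median. Stat3 followed Gpc6 within both groups (r = 0.89 and 0.93) with a difference between them of -0.02 (limma adjusted p = 0.891).

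**Figure D5:**
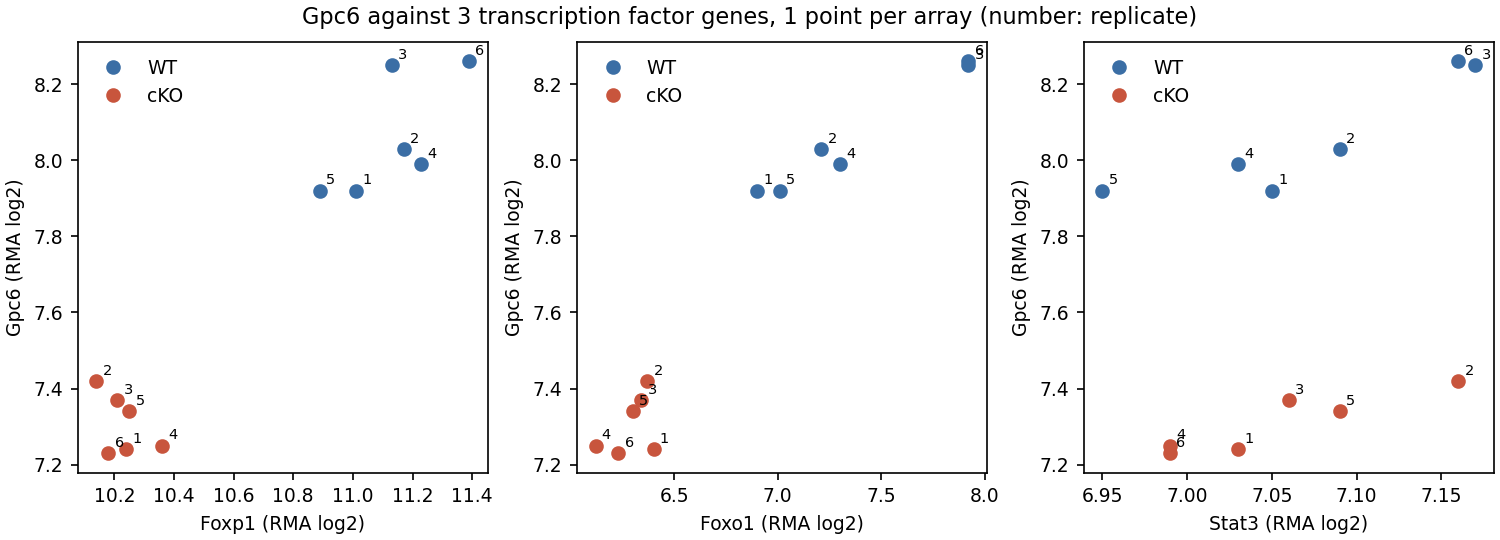
Gpc6 (vertical axis, RMA log2) against Foxp1, Foxo1 and Stat3 (horizontal axes, RMA log2), with 1 point per array labelled by replicate, WT in blue and cKO in red. WT replicates 3 and 6 are highest for Gpc6 and for Foxo1, and the Stat3 values of the groups overlap while Gpc6 separates them.

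The other glypicans had different nearest genes. For Gpc1 they were Abitram (r = 0.93), Mlph (0.90) and Isl2 (0.90), which fell to 0.73, 0.61 and 0.51 without WT replicate 6 and cKO replicate 1. For Gpc2 they were Acsf3 (0.93), Man2b1 (0.92) and Zbed4 (0.89). For Gpc3 they were Bnip3 (0.93), Fbxo24 (0.91) and Zfp157 (0.91). For Gpc4 they were Aadacl2fm2 (0.94), Tcf15 (0.93) and Cthrc1 (0.90), and for Gpc5 B3gnt9, Fgr and Napsa (0.86 each). No gene was named for more than 1 glypican. Mlph, Isl2, Fbxo24, Aadacl2fm2, Tcf15, B3gnt9, Fgr and Napsa had means below the array median in both groups, and Zbed4 in WT. Their dim signals limit what these correlations can show.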

How the data were processed

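Total RNA of 12 striata was hybridised to 1-colour arrays (biotin label). The deposited values are log2 expression summarised with RMA by the authors, per the submitters' processing notes, which give no version. Array software, probe-to-gene definition and genome build are not given in the sources used here, so no coordinates are printed. RMA corrects background and gives all arrays a shared distribution: the sorted columns differed by at most 0.00187, with a median of 5.71 and a range from 5.21 to 13.99. A change common to all genes is thus invisible, differences of dim genes are understated, and levels of different probe sets are not compared. The number of arrays limits the precision. Arrays correlated at 0.992 to 0.998.

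Symbols came from the platform annotation and a RefSeq table (GRCm38.p6), for 24674 of 25428 probe sets. Of 137 listed genes 135 were matched, and the others were not analysed here.

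The cKO and WT arrays were fitted with limma (version 3.58.1, under R version 4.3.3; linear model per probe set, moderated two-sided test, no covariate), with Benjamini-Hochberg adjustment over all 25428 probe sets and a threshold of 0.05. The median within-group SD was 0.0469. The fit was tested on simulated data. The members and the lists were chosen with earlier results of these data known. Named were all glypicans, Foxp1, up to 4 called genes of each list (or the 2 with the smallest p), the nearest measured protein-coding neighbours, and for each glypican the 3 genes with the most similar deviations (5 for Gpc6). Further list genes outside this rule, those described as picked for their roles included, were named after their values were seen. The neighbour rule was narrowed to measured protein-coding genes after the gene order was seen. Alternatives covered normalization, dim probe sets, the prior, array weights, the replicate number, covariates, left-out arrays and thresholds.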

Additional observations from a re-analysis of the deposited data

Results flagged for a closer look

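Of 62 groups of 6 arrays examined for a single distant array, 3 stood out, and chance alone gives about 1 in 20. Gpc1 in WT replicate 6 read 8.75, above the next WT array at 8.46. Spock2 in WT replicate 3 read 9.79, above the next at 9.57. The choroid plexus and ependyma markers averaged 6.35 in cKO replicate 1, against 5.61 or less on the other cKO arrays, through Ttr.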

How the results depend on the processing

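In 24 alternatives all glypican differences moved by less than their spread between replicates, which describes them and is no support for Gpc6, on which the family was selected. Leaving out dim probe sets removes Gpc3, Gpc4 and Gpc5, which then have no value. Gpc2 changed sign without a call in 2 settings. All called probe sets numbered 278 with dim ones left out, 64 with the replicate number as a block, 56 with the cortical covariate, 31 with the projection neuron covariate (added after seeing the data), 61 at an adjusted p of 0.01 and 30 with a 1.5-fold minimum. Leaving out 1 array gave 106 to 227, the lowest 106, 109 and 117 without cKO replicate 2, 5 or 3. List genes called numbered 6 with dim probe sets left out, 6 with a trended robust prior, 1 with the cortical covariate, 0 with the projection neuron covariate and 0 with a 1.5-fold minimum, and 2 to 5 on leaving out 1 array (5 without WT replicate 1). The cause of these shifts was not tested. Same-numbered WT and cKO arrays deviated from their group means with correlations from -0.22 to 0.15. Such values cannot show whether same-numbered arrays shared a litter or a day of processing, which the labels do not give. With the replicate block, Slit3 was lost (limma adjusted p = 0.0966) and Boc gained (adjusted p = 0.0115) at unchanged differences of 0.30 and 0.16, and the glypican calls did not change. No pair of glypicans, or of a glypican and Foxp1, passed by Spearman correlation, within either group or without 2 arrays. Within a group of 6 arrays only the most extreme permutation p could pass after adjustment, so that setting can show little. For dim genes, signal over background limits what can be seen.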
